A study of Mus musculus with 5 samples.

Results

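Genes for the recognition and engulfment of apoptotic cells were compared between brain dendritic cells (DCs) and bone marrow monocytes on Affymetrix arrays. The 10 genes were the TAM receptor tyrosine kinases Axl, Mertk and Tyro3, their ligands Gas6 and Pros1, the TIM receptors Timd4 and Havcr2, the integrin bridge Mfge8, and the engulfment module of Elmo1 and Dock1. They were read from every probe set annotated to exactly 1 symbol, that symbol being 1 of the 10, which gave 16 of the 34945 probe sets with 1 symbol. A gene's value was the mean of its probe sets, so the 10 genes stood among 18193. The brain DC group held 2 arrays of Lin-CD45hiCD11c+ cells sorted from the brains of C57BL/6 mice that had received subcutaneous B16-Flt3L tumour cells 12 days earlier. The B16 melanoma comes from the mouse, and Flt3 ligand expands dendritic cells. The monocyte group held 3 arrays of SSCloCD11bhi CD115+ cells from C57BL/6 bone marrow, for which no treatment is labelled. All mice were females of 6 to 8 weeks. Whether each array stands for its own animal or pool is not stated, so the p-values reflect the spread among these arrays, which may be technical only. Cell type, tissue and tumour treatment changed together between the groups and cannot be told apart.

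Apoptotic cells expose the lipid phosphatidylserine on their surface, and phagocytes recognise it directly or through a bridge. TIM receptors bind the lipid directly, whereas TAM receptors and integrins bind it through soluble bridge proteins, Gas6 and protein S for the TAM receptors and MFG-E8 for integrins. Inside the phagocyte, ELMO1 and DOCK1 together activate the GTPase Rac1, which drives the actin cup around the corpse. TAM signalling also restrains inflammatory cytokine production in dendritic cells and macrophages, and in the brain Mertk and Axl are known for the clearance of dying cells by microglia.

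Promoter sequences of the genes on which the results turn are given here, from RefSeq on build GRCm38.p6, each with 250 bases before and 50 after an annotated start. Havcr2 and Timd4 are shown because they had the largest increases and lie in the same gene cluster. Elmo1 is shown with its 2 annotated starts, 382 kb apart, because its probe sets did not give the same difference. Capitals mark matches, on either strand, to 3 motifs: the PU.1 core GAGGAAGT, AP-1 as TGANTCA and C/EBP as TTGCNNAA. No 2 matches overlapped.
Havcr2, chr11:46454681-46454980, plus strand: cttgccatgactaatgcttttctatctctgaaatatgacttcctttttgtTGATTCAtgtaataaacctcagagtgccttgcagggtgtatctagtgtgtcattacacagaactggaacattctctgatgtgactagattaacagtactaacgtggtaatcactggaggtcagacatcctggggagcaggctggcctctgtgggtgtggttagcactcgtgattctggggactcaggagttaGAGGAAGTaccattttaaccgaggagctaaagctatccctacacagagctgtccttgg
Timd4, chr11:46810549-46810848, plus strand: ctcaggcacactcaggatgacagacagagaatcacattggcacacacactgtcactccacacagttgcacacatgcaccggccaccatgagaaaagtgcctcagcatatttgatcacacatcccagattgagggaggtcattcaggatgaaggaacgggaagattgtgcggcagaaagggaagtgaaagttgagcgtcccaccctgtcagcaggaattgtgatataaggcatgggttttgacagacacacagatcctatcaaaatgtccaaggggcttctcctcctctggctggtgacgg
Elmo1, upstream start, chr13:20090257-20090556, plus strand: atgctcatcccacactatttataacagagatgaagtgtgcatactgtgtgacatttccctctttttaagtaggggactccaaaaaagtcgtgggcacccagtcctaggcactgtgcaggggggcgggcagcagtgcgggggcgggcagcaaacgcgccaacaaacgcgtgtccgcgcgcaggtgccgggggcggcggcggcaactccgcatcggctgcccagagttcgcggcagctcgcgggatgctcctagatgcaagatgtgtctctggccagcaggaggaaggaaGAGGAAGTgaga
Elmo1, downstream start, chr13:20472740-20473039, plus strand: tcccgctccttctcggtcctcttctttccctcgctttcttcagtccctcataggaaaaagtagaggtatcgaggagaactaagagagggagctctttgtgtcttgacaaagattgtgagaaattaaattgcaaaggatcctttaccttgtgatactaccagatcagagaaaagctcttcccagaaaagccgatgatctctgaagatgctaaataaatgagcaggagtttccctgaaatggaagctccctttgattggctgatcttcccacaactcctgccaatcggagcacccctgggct
All 10 genes had an entry, 11 in all. The PU.1 core was found in the Havcr2 window, ending at the last base before the start, and in the upstream Elmo1 window, against 3.20% of 32851 promoters of the same length. The AP-1 letters were found in the Havcr2 window alone among the 10 genes, against 7.81% of all promoters. The C/EBP letters, in 10.8% of all promoters, were in none of the 11 windows. A match is a description of these letters and not evidence of a bound site.

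The deposited log2 values lie around a baseline set per probe set. They show differences between arrays but neither absolute levels nor detection. No level is compared between genes, except in the measure of likeness below. For the same reason, the highest mean among the probe sets of a gene does not mark the brightest probe set. Differences are given as brain DC minus monocyte on the log2 scale with the standard error (SE) of a limma fit over all genes. A gene is called at an adjusted p under 0.05. Replicates correlated at a Pearson r of 0.826 between the brain DC arrays and of 0.899 to 0.913 among the monocyte arrays, across genes, which are not independent replicates. Sort gate genes went with the labels for CD11c (Itgax, 5.02 ± 0.21), CD11b (Itgam, -2.28 ± 0.42) and CD115 (Csf1r, -1.40 ± 0.18), all called by limma, whereas Ptprc, the gene of CD45, was lower in brain DCs (-0.63 ± 0.14, not called without brain DC replicate 2). Markers of each labelled type were listed with earlier results of these data known, so they are no independent check of the labels. Of these, 7 of 7 measured conventional DC genes were higher in brain DCs, against 16.9% of all genes. Among them were Xcr1 (5.64), H2-Ab1 (5.45) and Ccr7 (4.0). All 4 measured monocyte genes were lower in brain DCs, against 16.9% of all genes, among them Fn1 (-5.94) and F13a1 (-5.36). Poly-A spike-ins, RNAs added during labelling, were higher in brain DC arrays in 24 of 24 probe sets, by a median of 2.59. Several of these probe sets read the same added RNA, so they are not independent. Whether RNA input or labelling differed between the groups is not stated and was not tested.

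The uptake genes went both ways between brain DCs and monocytes. Havcr2, Timd4, Mertk and Gas6 were higher in brain DCs, and Dock1, Pros1 and, by less and less firmly, Elmo1 were lower. Axl, Tyro3 and Mfge8 were not called. The 4 higher genes compare with 16.9% of all genes called higher, and the 3 lower genes with 16.9% called lower. Of the 10 genes, 7 were called either way, against 33.8% of all genes, and 5 were called with a difference of at least 2-fold, against 13.5%. The groups did not overlap in 9 of the 10 genes, against 60.2% of all genes, with Axl the exception. The median difference over the 10 genes was 0.14, against 0.09 over all genes, while the median size of the difference, without its sign, was 1.09 against 0.31. The 10 genes were chosen with earlier results of these data known, so none of these comparisons is a test of the set. In sorted bulk samples such as these, fewer cells of a type and less RNA per cell cannot be told apart.

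**Figure D1:**
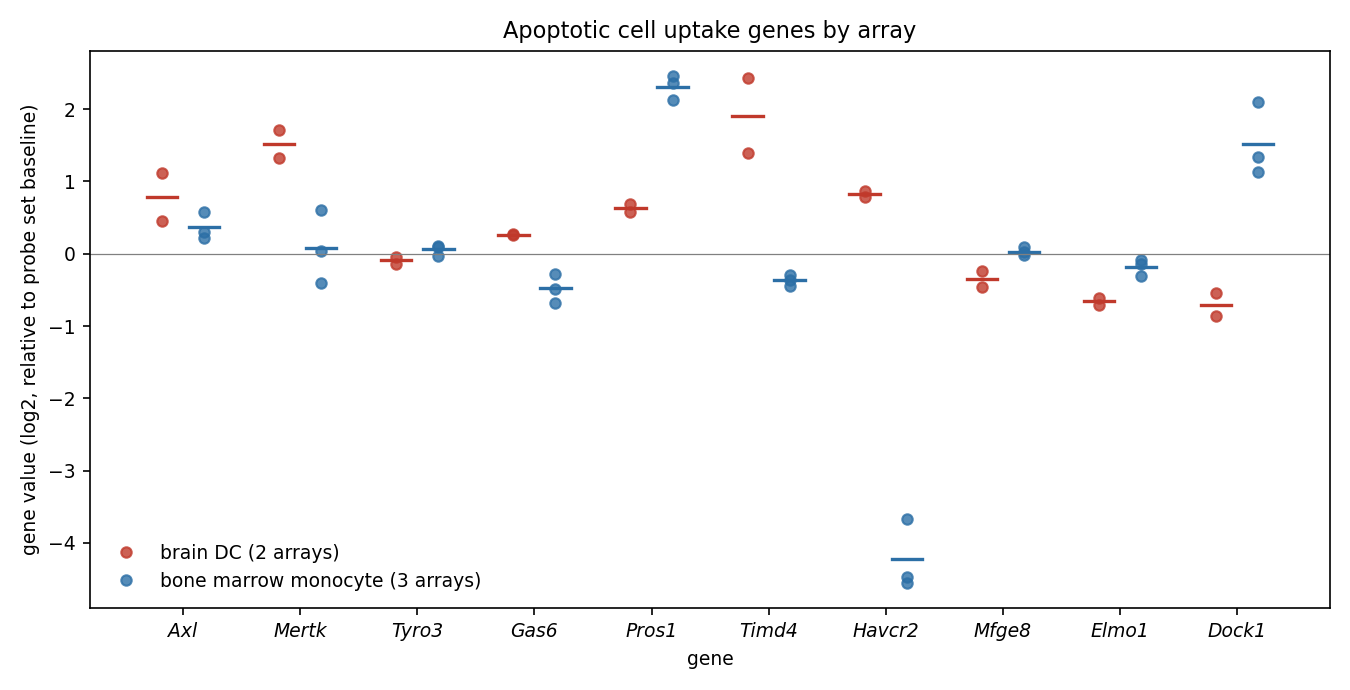
Each point is the gene value on 1 array (log2, relative to the probe set baseline), with brain DC arrays to the left of monocyte arrays for each of the 10 genes, and each bar is a group mean. Havcr2 separates the groups most, with brain DC values of 0.79 and 0.87 and monocyte values from -4.55 to -3.67, and Axl is the gene whose groups overlap. Heights are not comparable between genes.

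The TIM receptors showed the largest increases. Havcr2 encodes TIM-3, a phosphatidylserine receptor that also acts as an inhibitory receptor and is known on cross-presenting DCs of the mouse. It stood at 0.87 and 0.79 in the brain DC arrays, against -3.67, -4.55 and -4.47 in the monocyte arrays. Both brain DC values lay far above every monocyte value. Havcr2 was 33.3-fold higher in brain DCs (5.06 ± 0.26 SE, limma adjusted p = 1.67e-05), which ranked 35 among all 18193 genes by the size of the difference. Its 1 probe set carried the call.

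Timd4 encodes TIM-4, which tethers apoptotic cells through phosphatidylserine and is known on resident macrophages. It stood at 1.39 and 2.43 in the brain DC arrays, against -0.29, -0.45 and -0.36 in the monocyte arrays. The monocyte arrays lay close together and the brain DC arrays apart from each other, with no overlap. Timd4 was 4.84-fold higher in brain DCs (2.28 ± 0.28 SE, limma adjusted p = 7.86e-04). The difference was 2.80 without brain DC replicate 1 and 1.75 without brain DC replicate 2, and limma called it in either case.

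Havcr2 and Timd4 lie on chromosome 11 with 5 protein-coding genes between them in the reference annotation, among them Havcr1 and Timd2, which encode other TIM proteins. Havcr1, a phosphatidylserine receptor best known in the kidney, stood at 1.21 and -0.09 in brain DCs, against -0.51, -0.85 and -0.52 in monocytes. Its difference was 1.18 ± 0.34 SE (limma adjusted p = 0.0329). The call was lost without brain DC replicate 1, where the difference was 0.53 (1.84 without brain DC replicate 2), and without monocyte replicate 1, 2 or 3, with adjusted p from 0.0619 to 0.0920 in these limma fits. Timd2 was at 0.02 and -0.18 in brain DCs, against -0.65, -0.42 and -0.30 in monocytes, and was not called (0.38 ± 0.15 SE, limma adjusted p = 0.0957). Differences over the 4 TIM genes ran from 0.38 to 5.06, with 3 of them called.

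Of the 3 TAM receptors, Mertk was the one called. MerTK is the TAM receptor most tied to corpse engulfment by macrophages. Mertk stood at 1.32 and 1.71 in brain DC arrays, against 0.04, 0.61 and -0.40 in monocyte arrays. The brain DC values lay above all monocyte values, and the monocyte arrays were the more spread out. It was 2.70-fold higher in brain DCs (1.43 ± 0.28 SE, limma adjusted p = 0.00667), and leaving out any 1 array gave differences from 1.19 to 1.69, all called.

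Axl encodes the TAM receptor that responds to inflammatory signals and binds Gas6. Its gene value was 0.45 and 1.12 in brain DCs, against 0.58, 0.30 and 0.22 in monocytes. The lower brain DC array fell within the monocyte range. The difference was 0.42 ± 0.22 SE, with a 95% interval from -0.09 to 0.93 (limma adjusted p = 0.177). Either brain DC array moved this value: without replicate 1 the difference was 0.76 and called (limma adjusted p = 0.0303), whereas without brain DC replicate 2 it was 0.08.

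The spread in Axl came from 1 of its 2 probe sets. Probe set 1423586_at held 0.97 and 2.15 in brain DCs, against 1.19, 0.76 and 0.42 in monocytes. Probe set 1438621_x_at, whose suffix marks probes that may bind other transcripts, stayed between -0.16 and 0.10 on all 5 arrays. Neither was called, with differences of 0.77 (95% interval -0.07 to 1.62) and 0.07 (-0.29 to 0.43).

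Tyro3, the TAM receptor best known from neurons, showed little difference. It stood at -0.04 and -0.14 in brain DCs, against 0.09, -0.03 and 0.11 in monocytes. The difference of -0.15 ± 0.12 SE was not called (limma adjusted p = 0.398), and its 95% interval ran from -0.44 to 0.14. Probe sets 1425248_a_at (-0.20) and 1425249_a_at (-0.10) gave similar values.

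The ligands of the TAM receptors went opposite ways. Gas6 binds all TAM receptors, and protein S, the product of Pros1, binds Mertk and Tyro3 and is also an anticoagulant cofactor. Gas6 stood at 0.28 and 0.25 in brain DCs, against -0.28, -0.48 and -0.68 in monocytes. Brain DC values were all above monocyte values. The gene was 1.68-fold higher in brain DCs (0.74 ± 0.15 SE, limma adjusted p = 0.00751). Probe set 1417399_at carried the difference, with 0.83 and 0.44 in brain DCs against -0.57, -0.51 and -0.95 in monocytes, 2.49-fold higher (1.31 ± 0.20 SE). Probe set 1459585_at was not called (0.18 ± 0.20 SE), and its groups overlapped.

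Pros1 stood at 0.57 and 0.69 in brain DCs, against 2.36, 2.46 and 2.13 in monocytes. The arrays of each group lay close together, and the groups were far apart. Pros1 was 3.21-fold lower in brain DCs (-1.68 ± 0.14 SE, limma adjusted p = 1.63e-04), with differences from -1.78 to -1.61 when any 1 array was left out.

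Mfge8 encodes MFG-E8, which bridges phosphatidylserine to alpha v integrins. It stood at -0.46 and -0.24 in brain DCs, against -0.02, 0.02 and 0.09 in monocytes. The groups did not overlap, but the difference of -0.38 ± 0.13 SE was not called (limma adjusted p = 0.0587). It passed the threshold when each array was centred on its own median (-0.42, limma adjusted p = 0.0434) and after quantile normalisation (-0.40, limma adjusted p = 0.0464). Of the integrin chains that can receive MFG-E8, Itgb3 was lower (-0.71 ± 0.13 SE, limma adjusted p = 0.00464). On its highest-mean probe set Itgb3 was 0.22 and not called. Itgav (0.28 ± 0.13 SE) and Itgb5 (-0.52 ± 0.20 SE) were not called. On their highest-mean probe sets Itgav was -0.50 and not called, and Itgb5 was -0.88 and called (limma adjusted p = 0.0146). Itgb5 was -0.24 without brain DC replicate 1 and -0.80 without brain DC replicate 2.

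In the engulfment module Dock1 was lower in brain DCs, and the call of Elmo1 rested on 1 of its 3 probe sets. DOCK1, also known as DOCK180, is the exchange factor that loads Rac1 with GTP. Its gene value was -0.86 and -0.55 in brain DCs, against 1.13, 1.34 and 2.10 in monocytes. No values overlapped, and monocyte replicate 3 was the highest. Dock1 was 4.69-fold lower in brain DCs (-2.23 ± 0.28 SE, limma adjusted p = 9.10e-04).

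Its 2 probe sets pointed the same way with different sizes. Probe set 1452220_at held -1.50 and -1.13 in brain DCs, against 2.06, 2.28 and 2.53 in monocytes, a 12.2-fold lower value in brain DCs (-3.61 ± 0.20 SE, limma adjusted p = 3.35e-05). Probe set 1443991_at held -0.22 and 0.04 in brain DCs, against 0.19, 0.41 and 1.67 in monocytes, and was not called (-0.85 ± 0.41 SE). The 95% intervals of these differences, -4.08 to -3.14 and -1.81 to 0.10, did not overlap.

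Elmo1 encodes the scaffold that binds DOCK1 and links it to the membrane. Its gene value was -0.61 and -0.70 in brain DCs, against -0.30, -0.09 and -0.14 in monocytes. The difference was small and called (-0.48 ± 0.13 SE, limma adjusted p = 0.0252), but it averaged probe sets that did not share a direction. Probe set 1424523_at stood at -1.68 in both brain DC arrays, against 0.00, 0.34 and -0.01 in monocytes, 3.46-fold lower in brain DCs (-1.79 ± 0.17 SE, limma adjusted p = 3.39e-04). Probe set 1450208_a_at held -0.44 and -0.39 in brain DCs, against -0.55, -0.58 and -0.34 in monocytes. Probe set 1446610_at held 0.28 and -0.04 in brain DCs, against -0.37, -0.02 and -0.07 in monocytes.

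Those last probe sets of Elmo1 overlapped between groups and were not called, at 0.07 (95% interval -0.29 to 0.44) and 0.27 (-0.15 to 0.70). The interval of probe set 1424523_at, -2.19 to -1.39, lay outside both. Which transcript from the starts shown above each probe set reads is not given in the tables used here. The call of the gene mean was lost without either brain DC array and without monocyte replicate 2 or 3, with differences from -0.53 to -0.44 and limma adjusted p from 0.0581 to 0.0921.

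**Figure D2:**
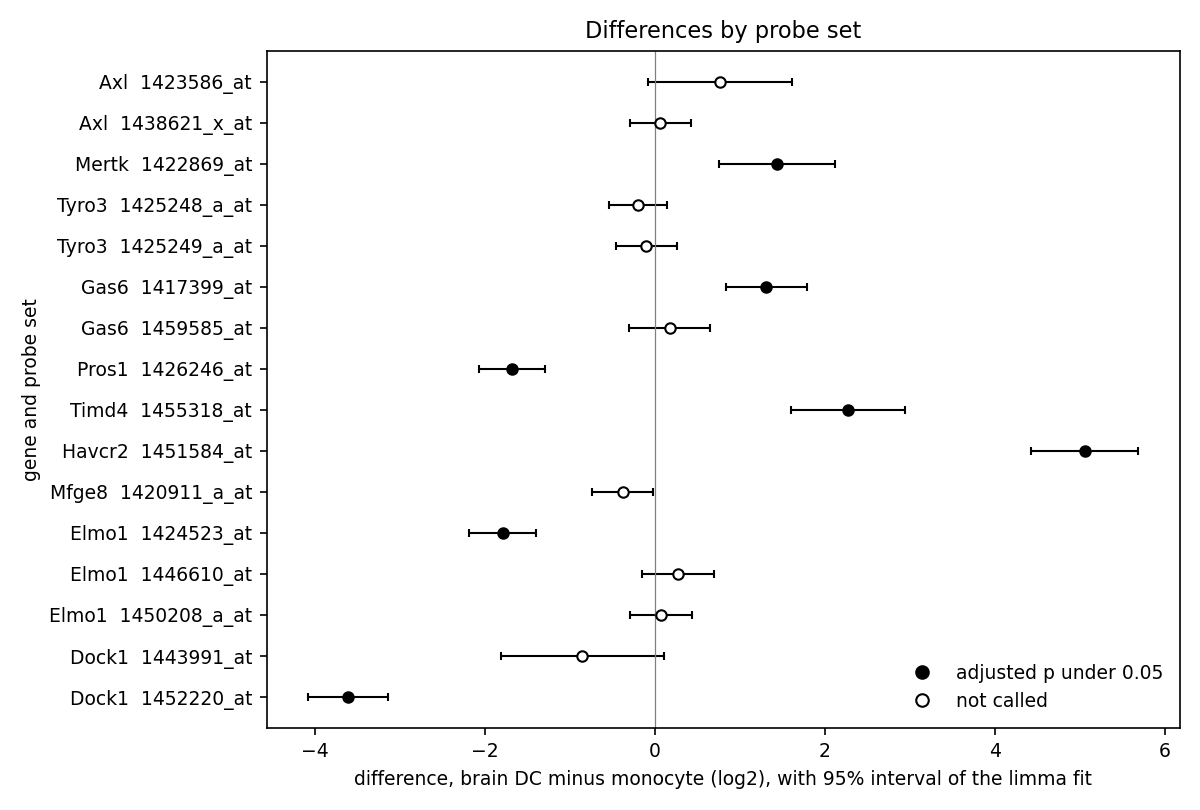
Each row is 1 of the 16 probe sets of the 10 genes, with its difference (brain DC minus monocyte, log2) and the 95% interval of the limma fit over all probe sets; filled points were called. The probe sets of Elmo1, Dock1 and Gas6 differ among themselves, with 1 called probe set in each gene.

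Over the 16 probe sets, 4 were called higher, against 12.2% of all 45037 probe sets that are not controls, and 3 were called lower, against 15.5%, with 27.7% of all called either way. Of the 10 genes, 5 rested on 1 probe set, 4 on 2 and 1 on 3. All 7 called genes had exactly 1 called probe set. The histogram of all genes places the 10 genes within the whole comparison.

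**Figure D3:**
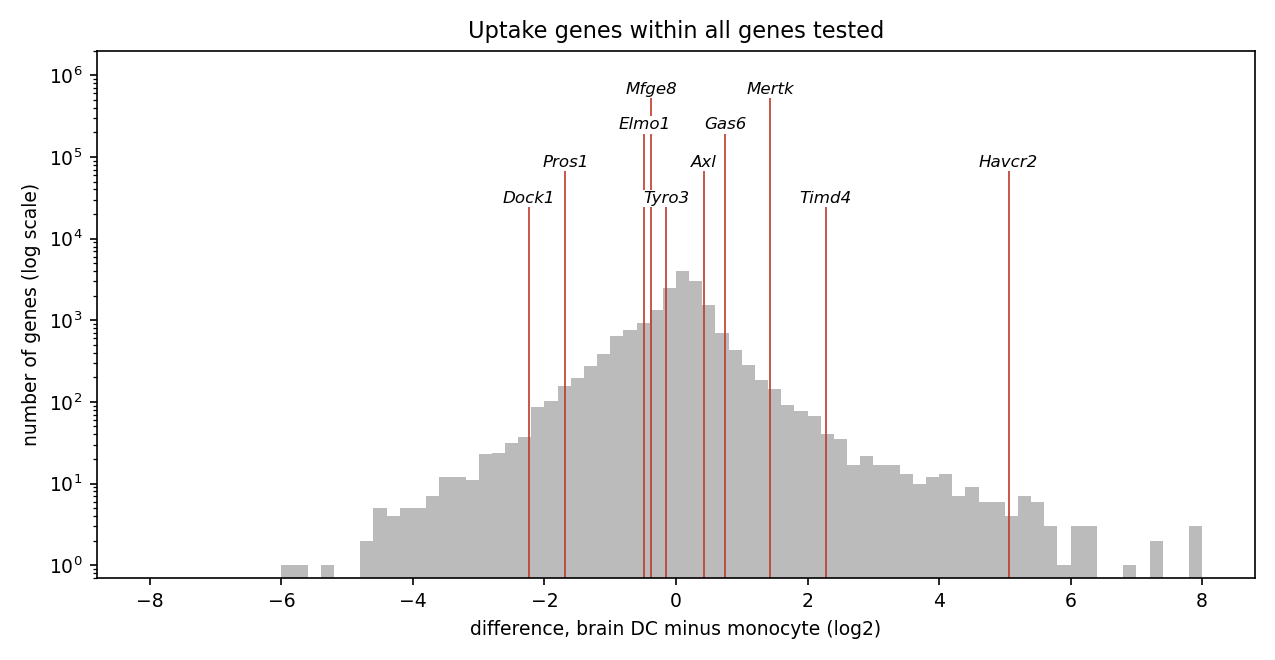
Grey bars count the 18193 genes by their difference (brain DC minus monocyte, log2; counts on a log scale), and red lines mark the 10 uptake genes, with line heights staggered for the labels alone. Havcr2 at 5.06 lies in the sparse upper tail, Dock1 at -2.23 and Pros1 at -1.68 lie in the lower tail, and Tyro3, Mfge8, Elmo1 and Axl lie in the dense middle.

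For likeness of values, the root mean square difference of gene values over the 5 arrays was used as a description. Values were not centred again per gene, so closeness also depends on the baseline of each gene. The genes closest to Havcr2 were Basp1 (0.288 log2 units), Egr1 (0.428) and Rasgrp3 (0.482). Those closest to Dock1 were Ckap4 (0.211), Tceanc (0.231) and Zfyve28 (0.241). With 5 arrays in 2 groups, such a likeness mostly reads the 2 group means.

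Other genes of apoptotic cell uptake also went both ways. Of 80 listed genes 76 were measured, of which 19 were higher in brain DCs, 23 lower and 34 not called. Their median difference was -0.08, against 0.09 over all genes. The calls, 25% higher and 30.3% lower, stand beside 16.9% for each direction over all genes.

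Limma called 5 of 16 other receptors higher (31.2%) and 4 lower (25%), against 16.9% of all genes each way. Their median difference was -0.06. Cd36, a scavenger receptor that works with integrins in uptake, stood at 5.87 and 5.49 in brain DCs, against 0.25, 0.22 and 0.61 in monocytes (5.31 ± 0.18 SE). Cd14, which can tether apoptotic cells, was higher (2.31 ± 0.36 SE). Lrp1, which acts as a receptor for calreticulin and C1q on corpses, stood at -0.11 and 0.50 in brain DCs, against 3.90, 3.80 and 3.58 in monocytes (-3.56 ± 0.20 SE). Msr1, a scavenger receptor of macrophages, was also lower (-2.88 ± 0.14 SE).

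Limma called 4 of 9 other bridge and opsonin genes higher (44.4%) and 0 lower, against 16.9% of all genes each way. The higher genes were the C1q subunits, which belong to a single complex, and Calr, whose difference was the median of 0.43. At an unadjusted p under 0.05, Tulp1 (0.46), Lgals3 (-0.30) and Thbs1 (-0.73) also passed. The C1q subunits, which coat corpses, had the largest differences: C1qb (6.23 ± 0.14 SE), C1qc (4.62 ± 0.15 SE) and C1qa (4.46 ± 0.18 SE). Calr, an exposed chaperone that marks cells for uptake, was higher by little (0.43 ± 0.14 SE, limma adjusted p = 0.0472), and lost its call under most alternatives. It was 0.25 on its highest-mean probe set and 0.33 with the median of its probe sets, and the call was also lost when each array was centred on its own median, in the replicate block and without brain DC replicate 2 (0.29) or any 1 monocyte array, with limma adjusted p from 0.0656 to 0.265 in these fits.

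Among 11 genes of find-me and do-not-eat-me signals, 5 were higher (45.5%), 4 lower (36.4%) and 2 not called. All genes stood at 16.9% in each direction. Cd24a, an inhibitor of phagocytosis, was higher (2.70 ± 0.21 SE), and so was Gpr132, a receptor tied to lysophospholipid find-me signals (1.01 ± 0.26 SE). Gpr132 stood at 0.05 and 1.03 in brain DCs, against -0.39, -0.57 and -0.45 in monocytes. Its difference was 0.52 without brain DC replicate 2, and its call was lost without monocyte replicate 1, 2 or 3, with limma adjusted p from 0.05002 to 0.0623. Cx3cr1, the fractalkine receptor, was lower (-2.56 ± 0.22 SE), as were Sirpa, the receptor of the do-not-eat-me signal CD47 (-1.35 ± 0.14 SE), and the scramblase gene Xkr8 (-0.83 ± 0.17 SE), the last not called on its highest-mean probe set (-0.42). Cd47 itself was at 0.31 and 0.65 in brain DCs, against 0.60, 0.55 and 0.70 in monocytes, and was not called.

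Genes of the cytoskeletal machinery were more often called lower than higher in brain DCs. Of 16 measured, 1 was higher (6.25%), 7 lower (43.8%) and 8 not called, with a median of -0.36. The share over all genes was 16.9% each way. Elmo2, a paralogue of Elmo1, stood at -0.06 and 0.17 in brain DCs, against 1.25, 1.21 and 1.25 in monocytes (-1.18 ± 0.13 SE, limma adjusted p = 4.93e-04). Dock8, an exchange factor for Cdc42, was lower as well (-1.19 ± 0.17 SE). Vav1 (-0.81 ± 0.13 SE), the tyrosine kinase gene Abl1 (-0.73 ± 0.12 SE) and Rac1, the target of the ELMO1 and DOCK1 pair (-0.65 ± 0.13 SE, limma adjusted p = 0.00773), were lower too. The gene called higher was Dock5, a paralogue of Dock1 (0.53 ± 0.14 SE, limma adjusted p = 0.0264), named after its value was seen. That call was lost without either brain DC array or monocyte replicate 1 or 3, with limma adjusted p from 0.0687 to 0.0834. With the highest-mean probe set standing for the gene, Vav1 (-0.12) and Abl1 (-0.28) were not called.

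Among 14 measured genes of phagosome maturation and lipid handling, 1 was higher (7.14%), 5 lower (35.7%) and 8 not called. Over all genes the share was 16.9% each way. Dnase2a, the lysosomal nuclease that degrades corpse DNA, stood at 1.30 and 1.53 in brain DCs, against -0.11, -0.21 and 0.09 in monocytes (1.49 ± 0.15 SE). The lysosomal membrane gene Lamp1 (-1.63 ± 0.15 SE), the lipid transporter gene Abca7 (-1.61 ± 0.12 SE), the phosphatidylinositol kinase gene Pik3c3 (-1.25 ± 0.19 SE) and Rubcn, which acts in LC3-associated phagocytosis (-0.90 ± 0.15 SE), were lower. Of 10 measured genes of TAM signalling and ligand processing, 3 were higher (30%), 3 lower (30%) and 4 not called. Socs3, a feedback inhibitor of cytokine signalling that TAM receptors can induce, stood at 3.33 and 3.51 in brain DCs, against -0.43, -0.44 and -0.51 in monocytes (3.88 ± 0.13 SE, limma adjusted p = 2.80e-06). Vkorc1, which regenerates the vitamin K that Gas6 and protein S need for lipid binding, was higher (1.26 ± 0.18 SE), and so was Pik3r1, a PI3-kinase subunit (0.91 ± 0.14 SE). Adam17, a protease that cleaves MerTK from the surface, was lower (-1.24 ± 0.14 SE), and so was Ifnar2, an interferon receptor gene and a subunit in the receptor through which TAM feedback runs (-1.17 ± 0.13 SE).

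**Figure D4:**
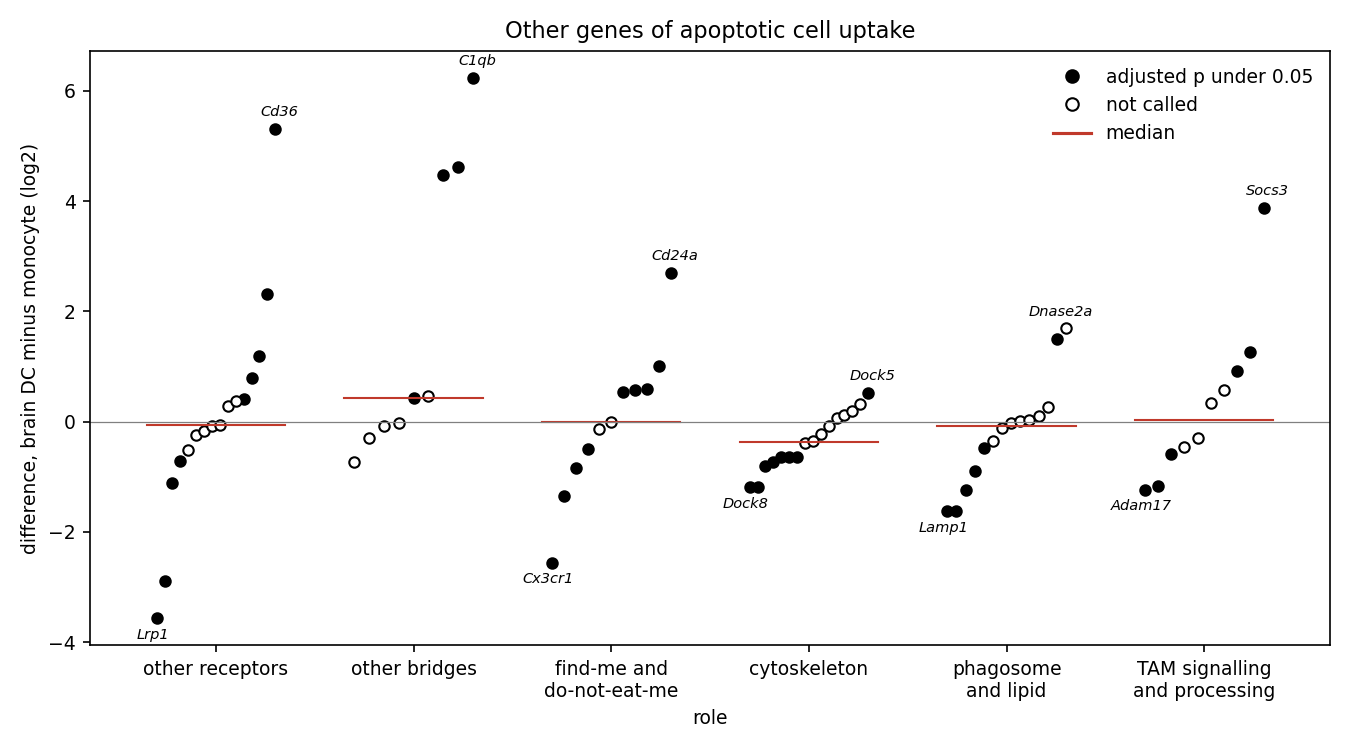
Points are the 76 other measured genes of apoptotic cell uptake by role, with their difference (brain DC minus monocyte, log2); filled points were called, red lines are medians, and the called genes with the largest difference each way are named. Bridges hold 4 called genes, all higher, namely the C1q subunits and Calr, and the cytoskeleton column holds 7 lower and 1 higher. Over all genes 16.9% were called in each direction.

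Markers of other cell types that a gate could hold were read beside these results, with mixed calls in some lists. These lists, too, were chosen with earlier results of these data known, so they are no independent check. Over all genes 16.9% were called higher and 16.9% lower. The resident macrophage list below, at 16.7% each way, was near those shares. Microglia genes were higher in brain DCs in 8 of 8 measured, by a median of 2.07, with the largest differences in Gpr34 (3.64), Fcrls (3.45) and P2ry12 (2.49). The mean value over that list was 1.33 to 1.51 in brain DC arrays, against -0.85 to -0.62 in monocyte arrays. Outside that list, Cx3cr1 (-2.56), Csf1r (-1.40) and Adgre1 (-1.34), which microglia also express, were called lower in brain DCs. Microglia are known to express Mertk and the C1q genes, and the part of these cells in those results was not tested. Of 7 border macrophage genes, which mark macrophages of the brain's membranes and vessels, 3 were higher, 1 lower and 3 not called (list means 0.81 to 0.86 in brain DCs, against 0.24 to 0.35 in monocytes). Pf4 (2.90) and Cd163 (1.19) were higher and Cbr2 (-1.18) was lower. Of 6 resident macrophage genes, which stand beside Timd4, 1 was higher, Vcam1 (0.80, but 0.54 and not called without brain DC replicate 1, and not called without monocyte replicate 1), 1 lower, Adgre1 (-1.34), and 4 not called (list means 0.40 to 0.45 in brain DCs, against 0.51 to 0.66 in monocytes). All 4 measured neutrophil and progenitor genes were lower in brain DCs, led by Mpo (-4.64, not called without either brain DC array) and Prtn3 (-4.53), with list means of 0.07 to 0.09 in brain DC arrays and 2.55 to 4.66 in monocyte arrays. They stand beside the lower Dock1, Pros1 and Elmo1, and their part was not tested.

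Calls among brain tissue markers varied between lists. Over all genes 16.9% were called higher and 16.9% lower, and the astrocyte list, at 16.7% higher, was near that share. In choroid plexus 1 of 4 measured genes was higher, Ttr (7.22), and in endothelium 3 of 5, led by Cldn5 (2.56). In astrocytes 1 of 6 was higher, Gja1 (0.99), and in oligodendrocytes 1 of 4, Mag (0.49, not called without brain DC replicate 1, where it was 0.30, or without any 1 monocyte array). None of these 4 lists held a gene called lower by limma, nor one that was lower at an unadjusted p under 0.05. None of the 5 neuron, 3 natural killer cell, 3 T and B cell or 5 B16 melanoma genes was called either way by limma, with differences from -0.33 to 0.48. At an unadjusted p under 0.05, 1 of these genes was higher, Cd3g of T cells. Because the values are centred, a marker at background cannot be told from one that is expressed evenly.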

How the data were processed

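The deposited table holds log2 values made by the authors with RMA, per the submitters' processing notes. RMA includes background correction, quantile normalisation and a summary of probes per probe set. Its version, how values were centred and which arrays were processed together are not stated here, and the log2 base is inferred from a range of -8.52 to 8.59. Array medians lay between -0.05 and 0.00.

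Of 45101 probe sets, 64 controls were left out and 34945 of the rest carry 1 symbol in the platform annotation, 932 several and 9160 none. None with several symbols named one of the 10 genes. Gene values are probe set means over 18193 genes. Differences were fitted with lmFit and eBayes of limma 3.58.1 under R 4.3.3, without covariates, on 2 against 3 arrays, with Benjamini-Hochberg adjustment over all genes, or over 45037 probe sets, and a threshold of 0.05. Residual and prior degrees of freedom were 3 and 4.43. An exact two-sided permutation test here cannot give a p below 0.1. The number of arrays limits the precision. No filter on dim genes could be set on centred values.

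The members, lists, tests and alternatives were chosen with earlier results of these data known. Named genes are the 10 members, up to 5 called genes per role with the largest difference, up to 3 per marker list, the gate genes and the nearest patterns; Itgav, Itgb3, Itgb5, Timd2, Cd47, Tulp1, Lgals3 and Thbs1 were named after their values were seen. Of the 80 other uptake genes listed, 76 were analysed here. The same code was tested on simulated data.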

Additional observations from a re-analysis of the deposited data

How the results depend on the processing

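The 4 higher members were called under all alternatives that read gene values, with counts of 4 to 5 when any 1 array was left out, and 2 to 3 for the lower members, which numbered 4, with Mfge8 added, under both other scalings. Leaving out a brain DC array leaves 1 sample, assumed to vary like the others. The other uptake genes then numbered 13 to 16 higher and 20 to 23 lower, and all genes 2236 to 2447 higher and 2371 to 2806 lower. Counted as single probe sets, the other uptake genes held 32 higher and 49 lower, and all genes 4704 higher and 5865 lower, since a gene can have several. Elmo1 turned to 0.27 on its highest-mean probe set, 1446610_at, and to 0.071 on 1450208_a_at. It lost its call with the median of its probe sets (-0.26). On centred values the highest-mean probe set is the one highest against its own baseline, so that alternative does not pick a better probe set. It shows only that probe sets of a gene can differ. The arrays share only replicate numbers (correlations of deviations 0.04 and 0.09), and the fit with a replicate block called 4 members higher and 2 lower, with Elmo1 (-0.46, limma adjusted p = 0.0801) no longer called; it also ended the calls of Calr, Dock5 (0.43) and Mag (0.46) and added Pparg (2.28), Thbs1 (-0.98) and Tulp1 (0.55), among 74 other named genes, and gave 17 higher and 21 lower among the other uptake genes and 2513 and 3006 over all genes. Only monocytes have a replicate 3, so the block takes up that array. The differences in the block fit therefore equal those without monocyte replicate 3, and these alternatives are not separate checks of them. Of the 74 other named genes, 61 were called. Of these, 49 kept direction and call under all alternatives and 11 lost the call under at least 1. The sign changed in 1, Itgb3 (0.22 on its highest-mean probe set). Of the 13 not called, 5 gained a call and 4 changed sign under at least 1, namely Abca1 (0.16), Itgav (-0.50) and Ppard (-0.066) on the highest-mean probe set and Cd47, from -0.31 to 0.039 when any 1 array was left out. The highest-mean probe set moved several differences by over 1.5 times. Among called genes these included Dock8 (-2.50), Sirpa (-2.70), Gpr132 (1.65), Pik3r1 (0.56), Ckap4 (-3.43), Dock5 (1.19) and Vcam1 (1.82). Among genes not called they included Axl (0.77), Itgb5 (-0.88), Cd47 (-0.49) and Rxra (-0.87). The median difference over all genes was 0.05 with arrays centred on their medians and 0.07 after quantile normalisation, against 0.09.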

Other observations

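Pparg, a nuclear receptor that promotes the uptake programme of macrophages, was chosen here after its values were seen. It stood at 1.67 and 2.79 in brain DCs, against 0.05, -0.16 and 1.68 in monocytes, and was just short of the threshold (1.70 ± 0.56 SE, limma adjusted p = 0.0506). It was called after quantile normalisation (1.83) and without monocyte replicate 3 (2.28). Monocyte replicate 3 was the highest monocyte array for Pparg and also for Dock1, where it reached 2.10. The other nuclear receptors on the list, Nr1h3 (0.26), Ppard (0.11) and Rxra (-0.35), and the cholesterol exporter gene Abca1 (-0.12) were not called. Rxra was also just short of the threshold (limma adjusted p = 0.0565). Its call was gained with each array centred on its own median (-0.39) and on its highest-mean probe set (-0.87).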
